A study of Mus musculus with 12 samples.

Results

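The genes followed here encode the nuclear-encoded subunits of respiratory chain complexes I to IV, measured in mouse liver. They were chosen as a named list of 51 genes, and 49 of them were measured among the 18193 genes of the array. Of these, 28 belong to complex I, 4 to complex II, 7 to complex III and 10 to complex IV. A gene was read from the probe set that is listed with that gene alone and has the highest mean over all arrays. Ndufs6, whose probe set is shared with Ndufs6b, and Cox7b were not analysed here. Ndufa4 was counted with complex IV, where the protein is now placed. RNA came from the livers of C57Bl/6 mice aged 3 months and was hybridised to 12 Affymetrix mouse expression arrays: 4 wild type, 4 Atp7b-/- and 4 Atp7b-/- with supplemental zinc. Atp7b encodes the copper pump that lets hepatocytes excrete copper with the bile. Humans who lack it develop Wilson disease. The labels do not state how the allele was made, how much zinc was given or for how long, or whether the mice were male or female. Nor do they state that every array came from a separate animal, so the p-values measure only how arrays of a group vary, and some of that variation may be technical.

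The respiratory chain of the inner mitochondrial membrane passes electrons from NADH and succinate to oxygen and pumps protons as it does so. Complex I takes electrons from NADH in a peripheral arm that carries flavin and iron-sulfur clusters, and pumps protons in a membrane arm. Complex II is succinate dehydrogenase, which also belongs to the citric acid cycle. Both pass electrons to ubiquinone, complex III hands them to cytochrome c, and complex IV, cytochrome c oxidase, passes them to oxygen through haem and copper centres. In liver this chain supports gluconeogenesis, urea synthesis and fatty acid oxidation. Most subunits are nuclear-encoded and join subunits made from mitochondrial DNA.

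Values are log2 levels, and all changes are differences of log2 levels. The targeted gene was lower in every Atp7b-/- array: Atp7b stood at 8.51, 8.59, 8.61 and 8.69 in the wild type arrays, 7.17, 7.25, 7.11 and 6.91 in the untreated mutants and 6.85, 6.92, 6.57 and 6.98 in the zinc-treated ones. The labels do not say which stretch of the gene was disrupted, so its probe set may lie outside it and is no sure check of the labels. Hepatocyte markers had list means between 14.08 and 14.36 on all 12 arrays. Genes of pancreatic acinar cells were detected in zinc-treated replicates 2 and 3, where the list mean was 9.70 and 7.15 against 5.65 to 5.96 on the other 10 arrays. Replicate 1 of the untreated mutants stood apart, correlating with its group at a median of 0.991 where the other 3 reached 0.996. The difference between 3' and 5' probe sets of the actin and Gapdh controls, a measure of RNA degradation, averaged 0.79 to 0.88 on the untreated Atp7b-/- arrays and 0.54 to 0.78 on all others. Either control alone overlapped with wild type, actin at 1.26 to 1.40 against 1.03 to 1.37 and Gapdh at 0.32 to 0.37 against 0.18 to 0.34. On the mean of both, RNA quality and group cannot be told apart in the comparisons that use those arrays.

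The first comparison, untreated Atp7b-/- against wild type, asks how the subunit genes differ when the copper transporter is lost. In untreated Atp7b-/- liver 14 of the 49 genes were higher and 1 was lower, and 12 of the 14 belong to complex I. A gene is called higher or lower here at a Benjamini-Hochberg adjusted p under 0.05, from limma over all 18193 genes. Over all genes 14.3% were higher and 10.3% lower, against 28.6% and 2.04% of the subunit genes. The changes were small: the largest rise, of Ndufc1, was 1.49-fold, and the median over the 49 genes was 0.11, or 1.08-fold, where that over all genes was -0.05. Every gene called higher had its 4 mutant arrays above its 4 wild type arrays. In total 21 of the 49 genes showed that separation, where 14.3% of all genes did. Of the 9096 genes above the median level of all genes 2118 showed it, and of the 47 subunit genes there 21.

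Most subunit genes are among the brighter genes of the array, and brighter genes rose more often. Of the 49, 47 had a mean above the median of all genes (6.58). Among the 9096 genes above that median 23.0% were higher and the median change was 0.06. Among the 47 subunit genes it was 29.8%, with a median change of 0.13. The levels of all probe sets were also spread more widely on the untreated mutant arrays. Their upper quartiles were 7.65 to 7.70, against 7.52 to 7.63 on all other arrays. Their lower quartiles were 4.13 to 4.16, against 4.18 to 4.29. This spread and the group cannot be told apart, and its part in the changes was not tested.

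The complexes differed in how many of their genes were called. Of 28 complex I genes 12 were higher and 1 lower, with a median change of 0.16 (1.12-fold). Of 10 complex IV genes 2 were higher, with a median of 0.08. That is 42.9% of complex I and 20% of complex IV, where 14.3% of all genes and 23.0% of those above the median were higher. The share in complex IV was thus no larger than that of bright genes. None of the 4 complex II genes and none of the 7 complex III genes was called, with medians of 0.11 and 0.04. In other settings Uqcrc2 of complex III was called higher. This was with array weights (0.21), with dim genes left out (0.18) and when its probe sets were averaged (0.28). Sdha of complex II was called lower when averaged likewise (-0.24). That average takes in dim probe sets with means of 6.10 and 3.56, at -0.63 and -0.14. The bright ones differed by -0.04 and -0.15. By the unadjusted p under 0.05, 0 genes of complex II and 1 of complex III passed. The 95% intervals of their changes reached from -0.18 to 0.34 in complex II and from -0.18 to 0.33 in complex III. Whether the complexes differ from each other was not tested. After quantile normalization 9 complex I genes were higher and the median of the complex was 0.09, and without replicate 4 of untreated Atp7b-/- 9 were higher as well. With probe sets named _x_at, _s_at or _a_at left out, 6 of the 22 complex I genes still measured were higher. Ndufa1 and Ndufa7 had no probe set left.

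**Figure D1:**
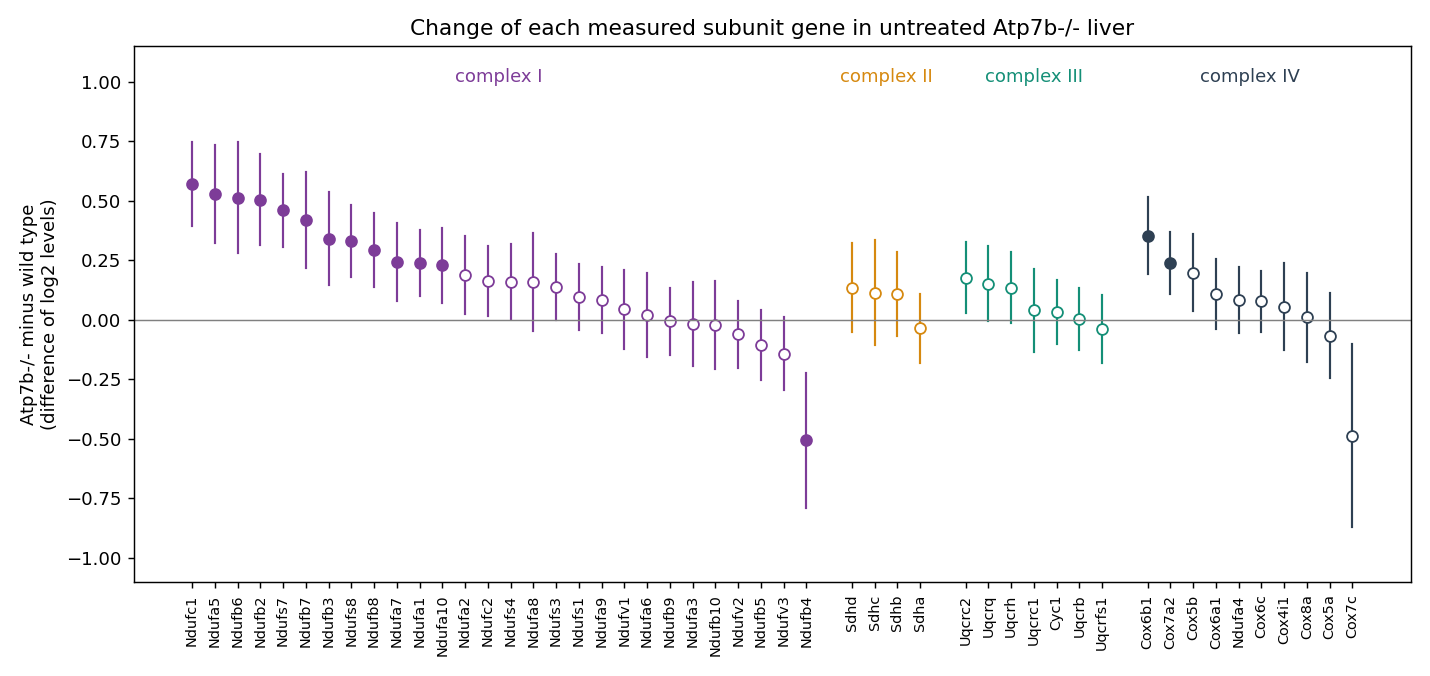
Difference of log2 levels between untreated Atp7b-/- and wild type liver (vertical axis) for each of the 49 measured genes, grouped by complex and ordered by size. Points are differences of means of 4 arrays each, bars are 95% confidence intervals from limma, and filled points are the genes called. The 12 complex I genes called higher lie between 0.23 and 0.57, and no point of complexes II and III is filled.

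Within complex I, the membrane arm had 8 of 15 genes higher and 1 lower, with a median change of 0.23. The peripheral arm had 4 of 13 higher, with a median of 0.14. The shares higher were 53.3% and 30.8%, beside 23.0% of the genes above the median of all genes. All the genes of the membrane arm counted here encode accessory subunits, since its core subunits are made in the mitochondrion.

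Ndufc1 (chr3:51405479-51408955, build GRCm38), which encodes a small membrane-arm subunit, changed most. Its log2 level was 11.995, 11.84, 11.87 and 11.86 in the wild type arrays, 12.46, 12.42, 12.48 and 12.49 in the untreated mutants and 12.15, 12.08, 11.85 and 12.21 in the zinc-treated ones. Every untreated mutant array lay above every other array, and the rise was 0.57 ± 0.08 (SE, n = 4 arrays a group, limma adjusted p = 0.000208). Ndufb6 (chr4:40270591-40279421) encodes another accessory subunit of this arm. It stood at 11.56, 11.30, 11.27 and 11.84 in the wild type arrays, 11.99, 11.99, 12.07 and 11.99 in the untreated mutants and 11.76, 11.77, 11.73 and 11.88 in the zinc-treated ones. Wild type replicate 4 was the highest of its group and still below all untreated mutant arrays, and the rise was 0.51 (adjusted p = 0.00392).

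Ndufb2 (chr6:39592565-39599843) had levels of 11.93, 12.23, 12.02 and 12.20 in the wild type arrays, 12.54, 12.62, 12.52 and 12.73 in the untreated mutants and 12.21, 12.35, 12.21 and 12.41 in the zinc-treated ones. The untreated mutants lay above both other groups, by 0.50 over wild type (adjusted p = 0.00107). Ndufb7 (chr8:83566758-83571623), a subunit of the intermembrane-space side, stood at 11.88, 11.63, 11.80 and 11.71 in the wild type arrays, 12.29, 12.02, 12.27 and 12.12 in the untreated mutants and 11.86, 11.68, 11.77 and 12.02 in the zinc-treated ones. All untreated mutant arrays exceeded wild type, while zinc-treated replicate 4 reached the level of untreated replicate 2. Ndufb8 (chr19:44548571-44555442) stood at 12.20, 12.18, 12.12 and 12.24 in the wild type arrays, 12.46, 12.53, 12.33 and 12.59 in the untreated mutants and 12.19, 12.24, 12.20 and 12.29 in the zinc-treated ones. Its zinc-treated arrays overlapped wild type and lay below all untreated mutants. The rises over wild type were 0.42 for Ndufb7 (adjusted p = 0.00561) and 0.29 for Ndufb8 (adjusted p = 0.00976).

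Ndufb3 (chr1:58586397-58595964) had log2 levels of 11.09, 11.14, 11.06 and 10.83 in the wild type arrays, 11.32, 11.41, 11.43 and 11.33 in the untreated mutants and 11.02, 11.27, 11.31 and 11.06 in the zinc-treated ones. Wild type replicate 4 was the lowest array, and the groups of the first comparison did not overlap. Ndufa1 (chrX:37187588-37191238), an X-linked gene for a short membrane-anchored subunit, stood at 13.05, 13.13, 13.11 and 13.10 in the wild type arrays, 13.28, 13.37, 13.30 and 13.39 in the untreated mutants and 13.24, 13.34, 13.26 and 13.18 in the zinc-treated ones. Its zinc-treated arrays lay above all wild type arrays and overlapped the untreated mutants, which also stood clear of wild type. Ndufb3 rose by 0.34 (adjusted p = 0.0151), Ndufa1 by 0.24 (adjusted p = 0.0166) and Ndufa10 by 0.23 (adjusted p = 0.0352). Without replicate 4 of untreated Atp7b-/- Ndufa1 had an adjusted p = 0.0532.

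In the peripheral arm the genes called encode 2 core subunits and 2 accessory ones. Ndufs7 (chr10:80249105-80256794) encodes the core subunit that holds the last iron-sulfur cluster before ubiquinone. Its log2 level was 11.36, 11.56, 11.45 and 11.39 in the wild type arrays, 11.83, 11.82, 11.99 and 11.96 in the untreated mutants and 11.56, 11.55, 11.61 and 11.50 in the zinc-treated ones. The untreated mutants stood clear of the other arrays, by 0.46 ± 0.07 over wild type (SE, n = 4 arrays a group, limma adjusted p = 0.000429). Ndufs8 (chr19:3908863-3912774), whose product carries a pair of iron-sulfur clusters, stood at 12.29, 12.20, 12.27 and 12.33 in the wild type arrays, 12.53, 12.53, 12.75 and 12.61 in the untreated mutants and 12.36, 12.37, 12.45 and 12.45 in the zinc-treated ones. All its mutant arrays, treated or not, lay above all wild type arrays, and it rose by 0.33 without zinc (adjusted p = 0.00426). Its other probe sets differed by 0.26, 0.20, 0.17, 0.16 and -0.09, and only on that at 0.26 did all untreated mutants exceed wild type. The probe set at 0.20 was nearly as bright as the one used, with a mean of 12.42 against 12.43.

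Ndufa5 (chr6:24518662-24527690), an accessory subunit, had levels of 10.89, 11.12, 11.02 and 11.13 in the wild type arrays, 11.32, 11.66, 11.61 and 11.68 in the untreated mutants and 11.21, 11.16, 11.19 and 11.40 in the zinc-treated ones. Replicate 1 was the lowest untreated mutant and lay above all wild type arrays, and the rise was 0.53 (adjusted p = 0.00143). Ndufa7 rose by 0.24 (adjusted p = 0.0335). Its other probe sets rose by 0.19, 0.32 and 0.29, except the dimmest, with a mean of 9.86, which differed by -0.19. The calls of Ndufa7 and Ndufa10 were the weakest of the 14, and each was lost in 6 of the 12 fits that left out 1 array: both without untreated Atp7b-/- replicate 3 or 4 or wild type replicate 2 or 3, Ndufa7 also without untreated replicate 1 or wild type replicate 4, and Ndufa10 without untreated replicate 2 or wild type replicate 1. Their changes in those fits stayed between 0.20 and 0.25.

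The other core subunits of the peripheral arm among the genes measured were not called. Ndufv1, which binds NADH and flavin, differed by 0.04 with a 95% interval of -0.12 to 0.21. Ndufv2 differed by -0.06, Ndufs1 by 0.10 and Ndufs3 by 0.14. Of the accessory subunits of this arm, Ndufv3 had the lowest difference, -0.14 (adjusted p = 0.158). Ndufs4, in which mutations cause Leigh syndrome in humans, differed by 0.16 (adjusted p = 0.126). Its dimmer probe sets disagreed, at 0.60 (mean level 7.25), 0.29 (8.45) and -0.15 (3.93). On the one at 0.60 all untreated mutant arrays lay above all wild type arrays.

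**Figure D2:**
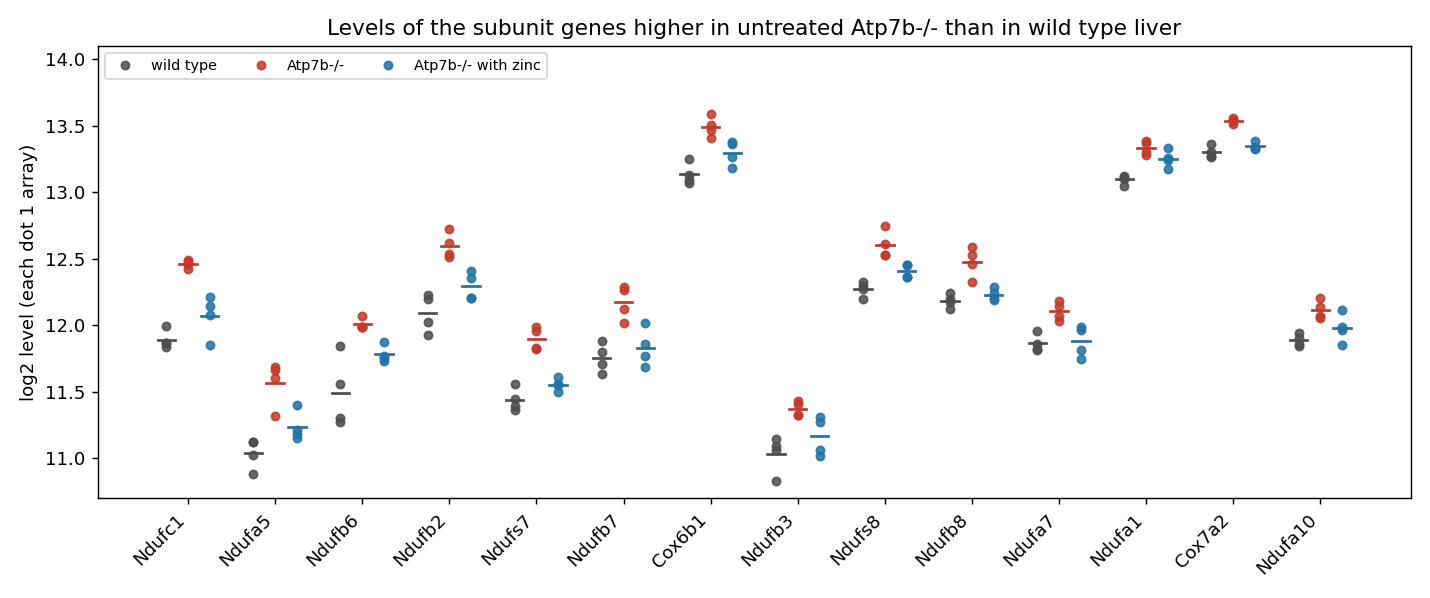
Log2 level (vertical axis) of the 14 subunit genes called higher in untreated Atp7b-/- than in wild type liver. Each dot is 1 array and each line the mean of 4 arrays, for wild type, untreated Atp7b-/- and Atp7b-/- with zinc. In every gene the 4 untreated mutant arrays lie above the 4 wild type arrays, for Ndufc1 at 12.42 to 12.49 against 11.84 to 11.995 in wild type.

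The single gene called lower, Ndufb4 (chr16:37647602-37654368), was also the dimmest. It stood at 4.92, 4.57, 4.37 and 4.66 in the wild type arrays, 4.18, 4.07, 4.36 and 3.88 in the untreated mutants and 4.35, 4.05, 4.49 and 4.28 in the zinc-treated ones, and the untreated mutant arrays lay below wild type by 0.51 (adjusted p = 0.0133). Its brighter probe sets are shared with Ndufb4b or Ndufb4c and were not used. The probe set used had a mean of 4.35, close to the lower quartiles of the arrays, 4.13 to 4.29. The highest untreated mutant array (4.36) nearly met the lowest wild type array (4.37). Cox7c was the other gene below the median of all genes.

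Of the 14 genes called higher 12 have more than 1 probe set. They have 20 further probe sets, 18 of them above the median of all genes. Of these 18, 16 were higher in the mutant by their means and 10 without overlap of the arrays, with differences between -0.19 and 0.77. For Ndufb6 the further probe set differed by 0.77, for Ndufc1 by 0.35 and for Ndufs7 by 0.39. With probe sets named _x_at, _s_at or _a_at left out, Ndufb2 and Ndufb8 changed sign, to -0.07 and -0.29, and neither was called. Their only remaining probe sets had means of 6.27 and 6.38, below the median of all genes. In that setting Ndufb7, Ndufs8 and Cox6b1 were not called either, at 0.29, 0.17 and 0.16.

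The start sites of Ndufc1 and Ndufs7 are shown because these genes had the smallest adjusted p-values of the complex. In each window, taken from RefSeq (GRCm38.p6) and running from 250 bases before the start to 50 after it, capitals mark the letters AAGATGGC, which match the motif of the factor YY1. The windows are chr3:51408906-51409205 (minus strand) and chr10:80249199-80249498 (plus strand).
Ndufc1: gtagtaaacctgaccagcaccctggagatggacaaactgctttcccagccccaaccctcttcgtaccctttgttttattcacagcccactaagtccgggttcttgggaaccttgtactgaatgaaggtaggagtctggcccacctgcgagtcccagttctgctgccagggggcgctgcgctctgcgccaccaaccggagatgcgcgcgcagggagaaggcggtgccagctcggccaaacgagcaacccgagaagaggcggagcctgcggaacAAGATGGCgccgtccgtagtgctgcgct
Ndufs7: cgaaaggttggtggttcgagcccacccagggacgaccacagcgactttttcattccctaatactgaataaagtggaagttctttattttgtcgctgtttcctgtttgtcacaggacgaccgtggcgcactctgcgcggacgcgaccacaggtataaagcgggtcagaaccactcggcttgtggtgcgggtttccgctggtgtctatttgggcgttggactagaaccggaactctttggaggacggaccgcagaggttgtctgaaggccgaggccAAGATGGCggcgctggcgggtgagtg
The letters stood 22 and 24 bases after the start and hold an ATG. The start used for Ndufs7, at 80249449, lies inside the gene, whose range begins at 80249105. Its whole window therefore lies within that range.

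Promoter windows were found for 39 of the 49 genes, and 3 motifs known from genes for mitochondrial proteins were searched on both strands, chosen after the values of the genes were known. GCGCATGCG, for NRF1, was in the windows of 3 of the 39 genes, and in 2.61% of 17491 protein-coding genes. CCGGAAGT, for ETS factors such as the GABPA protein, was in those of 3 genes, where all genes had 5.69%. AAGATGGC was in those of 6 genes, where all genes had 3.57%. No gene held more than 1 of the 3 motifs. The NRF1 letters of Cox6a1 and Uqcrc1 match on both strands, so each is 1 stretch read from either side. All 6 genes with AAGATGGC belong to complex I, 6 of 25 genes with a window, and none of the 14 genes of complexes II to IV held it. Of the 14 genes called higher 3 held it, and of the 25 others 3. The 6 stretches of 30 bases are given with the letters in capitals, each on the strand of its gene.
Ndufa3, chr7:3617384-3617413: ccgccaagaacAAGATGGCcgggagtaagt
Ndufa9, chr6:126849097-126849126: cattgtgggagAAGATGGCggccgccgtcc
Ndufb8, chr19:44555393-44555422: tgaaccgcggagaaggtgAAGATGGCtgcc
Ndufc1, chr3:51408915-51408944: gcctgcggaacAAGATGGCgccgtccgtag
Ndufs4, chr13:114388045-114388074: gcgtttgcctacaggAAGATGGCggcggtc
Ndufs7, chr10:80249462-80249491: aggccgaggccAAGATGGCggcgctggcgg
They lie 22 to 38 bases after the start used for each window, all on the gene's own strand. For Ndufa3, as for Ndufs7, that start (3617373) lies inside the gene, whose range begins at 3617347. Of the 6, Ndufb8, Ndufc1 and Ndufs7 were called higher, Ndufs4 differed by 0.16, Ndufa9 by 0.08 and Ndufa3 by -0.02. A match in letters is a description of the window and shows no binding.

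Complex II consists of 4 subunits, all nuclear-encoded. Sdha, the flavoprotein that oxidises succinate, stood at 12.38, 12.46, 12.54 and 12.54 in the wild type arrays, 12.45, 12.44, 12.43 and 12.46 in the untreated mutants and 12.53, 12.47, 12.36 and 12.40 in the zinc-treated ones. Its 3 groups overlapped fully. Sdhd, a membrane anchor, had the largest difference of the complex in the first comparison, 0.14 (adjusted p = 0.273). Its log2 level was 11.39, 11.30, 11.28 and 11.24 in the wild type arrays, 11.61, 11.40, 11.36 and 11.38 in the untreated mutants and 11.35, 11.62, 11.47 and 11.66 in the zinc-treated ones. Replicate 1 was the highest untreated mutant, and the groups overlapped. Sdhc, the other anchor, stood at 11.35, 11.41, 11.11 and 11.52 in the wild type arrays, 11.44, 11.42, 11.50 and 11.49 in the untreated mutants and 11.38, 11.29, 10.997 and 11.40 in the zinc-treated ones, and Sdhb, the iron-sulfur subunit, differed by 0.11 (adjusted p = 0.354).

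In complex III, Uqcrb, which binds ubiquinone, stood at 14.32, 14.35, 14.35 and 14.32 in the wild type arrays, 14.27, 14.33, 14.38 and 14.37 in the untreated mutants and 14.38, 14.31, 14.29 and 14.33 in the zinc-treated ones, near the top of the array's range. Its groups overlapped, as they did on its other probe set, which had means of 11.36 in wild type and 11.60 in untreated mutants. Uqcrc2, a core protein of the complex, differed most. It stood at 11.85, 11.88, 11.81 and 11.93 in the wild type arrays, 11.96, 12.10, 11.95 and 12.16 in the untreated mutants and 11.97, 12.002, 11.93 and 11.91 in the zinc-treated ones. The untreated mutants lay above all wild type arrays, but the difference of 0.18 was not called (adjusted p = 0.079). Uqcrh, the hinge protein beside cytochrome c1, also showed no overlap, at a difference of 0.13 (adjusted p = 0.169). The subunits that carry electrons, the Rieske protein Uqcrfs1 and cytochrome c1, Cyc1, differed by -0.04 and 0.03.

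In complex IV the 2 genes called higher were Cox6b1 and Cox7a2. Cox6b1 (chr7:30616971-30626114) encodes a subunit on the side where cytochrome c docks. It stood at 13.13, 13.09, 13.07 and 13.25 in the wild type arrays, 13.41, 13.47, 13.50 and 13.59 in the untreated mutants and 13.26, 13.38, 13.19 and 13.36 in the zinc-treated ones. The untreated mutants were above all other arrays, by 0.35 ± 0.07 over wild type (SE, n = 4 arrays a group, limma adjusted p = 0.00372). Cox7a2 (chr9:79755241-79771422), the form of subunit 7a used in liver, stood at 13.27, 13.36, 13.30 and 13.27 in the wild type arrays, 13.54, 13.51, 13.56 and 13.54 in the untreated mutants and 13.34, 13.39, 13.34 and 13.33 in the zinc-treated ones. The 4 untreated mutant arrays lay within 0.05 of each other and above the rest, 0.24 over wild type (adjusted p = 0.0114).

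Cox5b, a zinc-binding subunit, stood at 13.56, 13.32, 13.42 and 13.46 in the wild type arrays, 13.66, 13.54, 13.72 and 13.62 in the untreated mutants and 13.31, 13.43, 13.44 and 13.48 in the zinc-treated ones. Its untreated mutants were the highest group, with 1 array within the wild type range, and the difference of 0.20 was not called (adjusted p = 0.0709). Cox6a1, the form of subunit 6a used in liver, stood at 14.26, 14.11, 14.24 and 14.17 in the wild type arrays, 14.44, 14.27, 14.26 and 14.25 in the untreated mutants and 14.18, 14.18, 14.20 and 14.20 in the zinc-treated ones. Replicate 1 of the untreated mutants was apart from its group there. Cox7c, a dim gene on this array, stood at 6.81, 6.64, 6.25 and 6.74 in the wild type arrays, 6.31, 5.85, 6.49 and 5.83 in the untreated mutants and 6.37, 6.29, 5.74 and 6.24 in the zinc-treated ones and differed by -0.49 (adjusted p = 0.0622). Cox4i1, Cox5a, Cox6c, Cox8a and Ndufa4 had differences between -0.07 and 0.08.

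Summarised by array, complex I separated the untreated mutants most clearly. The median displacement of its 28 genes from the wild type mean was 0.12 to 0.19 on those 4 arrays. It was -0.02 to 0.02 on the wild type arrays and 0.00 to 0.07 on the zinc-treated ones. For complex IV the same figure was 0.06 to 0.09 on replicates 2, 3 and 4 of the untreated mutants and 0.19 on replicate 1. In complexes II and III the untreated mutants overlapped wild type. Over all genes tested the untreated mutants lay at -0.05 to -0.04. Brighter genes went the other way. Those above the median of all genes had a median change of 0.06 in untreated mutants, and the 27 complex I genes among them 0.16.

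**Figure D3:**
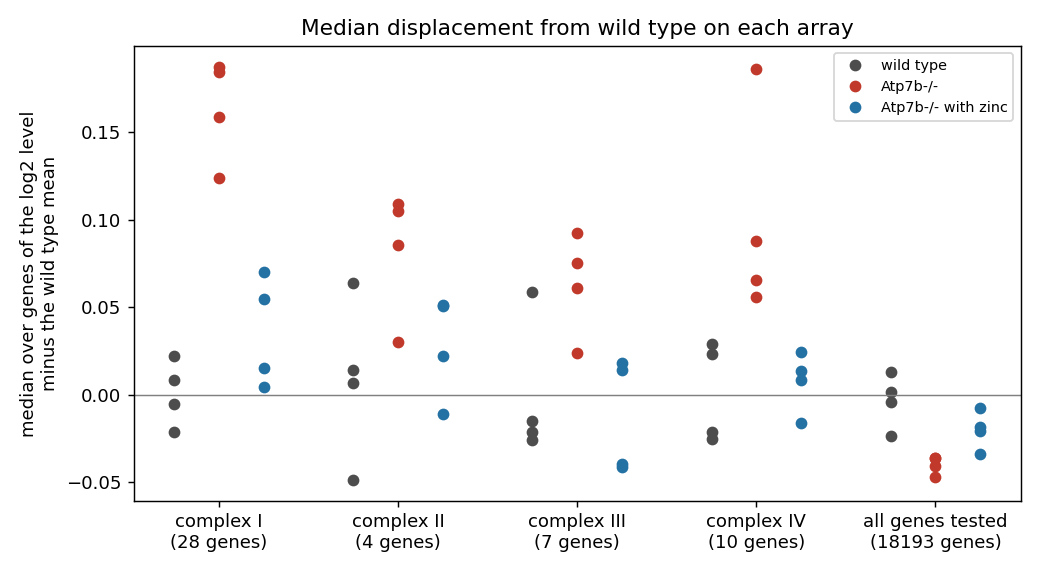
Median over genes of the log2 level minus the wild type mean of each gene (vertical axis), for each complex and for all genes tested. Each dot is 1 array of wild type, untreated Atp7b-/- or zinc-treated Atp7b-/- liver. In complex I the untreated Atp7b-/- arrays lie at 0.12 to 0.19 and all other arrays at -0.02 to 0.07. Genes above the median of all genes, with a median change of 0.06 in untreated mutants, are not shown apart.

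The second comparison, zinc-treated against untreated Atp7b-/-, asks which subunit genes differed with zinc. It shares the untreated arrays with the first, so the direction of a gene in one is not independent of the other. Of the 49 genes 4 were lower with zinc and 0 higher, where 4.84% of all genes were lower and 1.7% higher. The median over the 49 was -0.10 and that over all genes 0.01. Among the genes above the median level 7.49% were lower with zinc and the median was -0.06, against 8.51% and -0.11 of the 47 subunit genes above it, so the share of subunit genes called was close to that of bright genes. All 4 belong to complex I, whose median was -0.12. In complexes II, III and IV no gene was called (limma), 0, 1 and 3 genes passed an unadjusted p under 0.05, and the medians were -0.02, -0.09 and -0.08.

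The genes lower with zinc were Ndufc1, Ndufs7, Ndufb7 and Ndufs3. Ndufc1 fell by 0.39 (adjusted p = 0.0119) and Ndufs7 by 0.34 (adjusted p = 0.0116). Both had all zinc-treated arrays below all untreated ones. Ndufb7 fell by 0.34 (adjusted p = 0.0456). Ndufs3 (chr2:90894627-90904721), a core subunit of the peripheral arm, stood at 11.93, 12.08, 12.01 and 12.03 in the wild type arrays, 12.17, 12.10, 12.19 and 12.14 in the untreated mutants and 11.84, 11.96, 11.92 and 11.89 in the zinc-treated ones. Its zinc-treated arrays lay below the untreated mutants without overlap, by 0.25 (adjusted p = 0.0339). Not all of these calls held when arrays were left out. Those of Ndufb7 and Ndufs3 were each lost in 8 of the 12 fits that left out 1 array, those of Ndufc1 and Ndufs7 in 0. With zinc-treated replicates 2 and 3 left out, the arrays on which acinar genes were detected, 0 of the 49 genes were called. The changes of Ndufc1, Ndufs7, Ndufb7 and Ndufs3 were then -0.28, -0.37, -0.23 and -0.29. Without zinc-treated replicate 1, 2 or 3, or without untreated replicate 4, 2 genes were called each time.

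In the other complexes the largest differences with zinc were those of Sdhc, Uqcrc1 and Cox5b. Sdhc differed by -0.20 (adjusted p = 0.294) and Cox5b by -0.22 (adjusted p = 0.0964). Uqcrc1, a core protein of complex III, stood at 11.88, 11.68, 11.78 and 11.97 in the wild type arrays, 11.90, 11.81, 11.85 and 11.90 in the untreated mutants and 11.77, 11.53, 11.70 and 11.75 in the zinc-treated ones. Its zinc-treated arrays lay below the untreated mutants without overlap, at a difference of -0.18 (adjusted p = 0.214).

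The third comparison, zinc-treated Atp7b-/- against wild type, shares arrays with both others. None of the 49 genes was called by limma, 9 passed an unadjusted p under 0.05, and 7.62% of all genes were called in either direction. The median over the 49 genes was 0.02. Ndufb6 had the largest positive difference, 0.29 with a 95% interval of 0.06 to 0.52 (adjusted p = 0.134). Without wild type replicate 4, its highest wild type array, it was the 1 gene called (adjusted p = 0.0107). In complex II Sdhd differed by 0.22 (adjusted p = 0.151), in complex III Uqcrc1 by -0.14 and in complex IV Cox7c by -0.45 (adjusted p = 0.158). The largest difference of complex I was that of the dim gene Ndufb4, -0.34 (adjusted p = 0.151).

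In all, 10 further lists hold 118 measured genes of the same pathway. In untreated Atp7b-/- liver 30 of them were higher than in wild type and 11 lower, and without replicate 1 of that group 29 and 6. With zinc 3 were higher and 13 lower than in untreated mutants, and with zinc-treated replicates 2 and 3 left out 6 were called in all. Against wild type 5 were higher and 2 lower with zinc, and 3 were called without those arrays. These shares were 25.4% higher and 9.32% lower in the first comparison, where all genes had 14.3% and 10.3% and the genes above the median 23.0% and 11.1%. In the second they were 2.54% higher and 11% lower, where all genes had 1.7% and 4.84% and genes above the median 2.53% and 7.49%. In the third they were 4.24% and 1.69%, where all genes had 4.89% and 2.73% and genes above the median 7.83% and 4.18%. The counts of each list below stand beside these shares of all genes. The genes named from each list are among the 4 with the smallest adjusted p-values in 1 of the comparisons. Sco1, Sco2, Cycs, Nrf1, Gabpa, Yy1 and Ppargc1a are exceptions, chosen after their values were seen.

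The assembly factors of complex I, which build the enzyme without staying in it, moved both ways. Of 14 measured, 5 were higher and 3 lower (median 0.19). Acad9, which takes part in building the membrane arm, went from 9.08 ± 0.11 (SD, n = 4) to 9.92 ± 0.11, a rise of 0.84 (adjusted p = 7.77e-06). It stood at 9.40 ± 0.08 with zinc, -0.52 from the untreated mutants (adjusted p = 0.00233). Ndufaf1 and Ndufaf7 rose by 0.47 and 0.49, and Nubpl, which serves iron-sulfur cluster supply of complex I, by 0.47. Ndufaf2, a late-acting factor, fell by 0.95 (adjusted p = 2.89e-06). Its log2 level was 7.58, 7.62, 7.67 and 7.64 in the wild type arrays, 6.49, 6.62, 6.87 and 6.71 in the untreated mutants and 7.19, 6.98, 7.03 and 7.04 in the zinc-treated ones. The 3 groups did not overlap, and the zinc-treated arrays lay between the others.

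Of 19 assembly factors of complex IV, 8 were higher and 1 lower in untreated mutants (median 0.20). Coa6, needed for the copper site of subunit 2, stood at 9.64, 9.78, 10.12 and 9.73 in the wild type arrays, 10.41, 10.64, 10.68 and 10.60 in the untreated mutants and 10.14, 10.24, 10.31 and 10.22 in the zinc-treated ones. The untreated mutants lay above both other groups, by 0.77 over wild type (adjusted p = 0.000116). Cmc2, Coa7 and Cmc1 rose by 0.48, 0.51 and 0.54. Cox17, the copper chaperone of the intermembrane space, rose by 0.51 (adjusted p = 0.000661), but by 0.06 (adjusted p = 0.732) on its other probe set. Sco2, which delivers copper to subunit 2, went the other way, at 10.81, 10.56, 10.37 and 10.44 in the wild type arrays, 9.97, 9.97, 10.07 and 10.20 in the untreated mutants and 10.33, 10.36, 10.57 and 10.64 in the zinc-treated ones. Its untreated mutants lay below all other arrays, by 0.49 under wild type (adjusted p = 0.00492). Sco1, its partner, differed by 0.08 (adjusted p = 0.64).

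With zinc, 4 of these 19 genes were lower than in untreated mutants and 1, Sco2, was higher. Cox18, which inserts subunit 2 into the membrane, fell by 0.74 (adjusted p = 0.00107). It stood at 8.84, 8.63, 8.94 and 8.49 in the wild type arrays, 9.39, 9.06, 9.25 and 9.12 in the untreated mutants and 8.41, 8.39, 8.54 and 8.53 in the zinc-treated ones. Every zinc-treated array was below every untreated one, and 2 of them were also below all wild type arrays. Sco2 was 0.42 higher (adjusted p = 0.0331). Its call was lost without untreated replicate 1, 2 or 3 and without zinc-treated replicate 3 or 4, at 0.37 to 0.43.

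Of 10 assembly factors of complexes II and III 1 was higher, Sdhaf4 by 0.44 (adjusted p = 0.00146), and 0 lower (median -0.02). Of 9 other structural subunits of complexes I to IV, Ndufa12 and Ndufab1 were higher, by 0.34 and 0.29, and 0 lower. Both calls were lost, at 0.02 and 0.04, when the probe sets of a gene were averaged. The 1 measured gene of mitochondrial DNA, ND5, differed by -0.08 (adjusted p = 0.46). Of 17 subunits of ATP synthase 1 was higher and 1 lower, Atp5e by 0.35 and Atp5g1 by -0.41. Those calls were lost in 4 and 5 of the 12 fits that left out 1 array.

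Of 11 genes of ubiquinone synthesis and cytochrome c, 6 were higher and 0 lower (median 0.25). Coq7, the hydroxylase of the last but one step, stood at 9.78, 9.56, 9.56 and 9.56 in the wild type arrays, 10.58, 10.44, 10.59 and 10.38 in the untreated mutants and 10.11, 10.24, 10.21 and 10.14 in the zinc-treated ones. The 3 groups did not overlap, with a rise of 0.88 in untreated mutants (adjusted p = 3.22e-06) and of 0.56 in zinc-treated ones (adjusted p = 0.000625), both over wild type. Coq3, a methyltransferase, rose by 0.43 and Coq2, which attaches the side chain, by 0.41. Cytochrome c itself, Cycs, differed by -0.11 (adjusted p = 0.526).

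Of 12 genes of the citric acid cycle, which feeds the chain, 5 were higher and 1 lower (median 0.23). Mdh2, mitochondrial malate dehydrogenase, stood at 11.59, 11.97, 11.75 and 11.92 in the wild type arrays, 12.59, 12.42, 12.50 and 12.63 in the untreated mutants and 12.004, 12.06, 11.74 and 12.18 in the zinc-treated ones. It was 0.73 above wild type in untreated mutants (adjusted p = 0.000282), and -0.54 with zinc against those (adjusted p = 0.00918). Dlst, of the oxoglutarate dehydrogenase complex, rose by 0.56 (adjusted p = 5.59e-05), but by 0.10 (adjusted p = 0.401) as the mean of its probe sets.

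Of 17 regulators of mitochondrial biogenesis, 1 was higher and 4 lower (median -0.02). Tfb1m, which methylates mitochondrial ribosomal RNA, rose by 0.51 (adjusted p = 0.00297), and Twnk, the helicase of mitochondrial DNA, fell by 0.48 (adjusted p = 0.00175). Nrf1 differed by -0.12, Gabpa by -0.17, Yy1 by -0.22 and Ppargc1a, a coactivator, by 0.49, and none of these was called. 

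Of 8 isoforms used mainly in other tissues, Cox6b2 was higher and Cox8c lower in untreated mutants. Cox6b2, the testis form of subunit 6b, had the largest change of any gene in these lists. It stood at 7.71, 7.91, 7.55 and 5.57 in the wild type arrays, 10.44, 9.11, 9.04 and 10.19 in the untreated mutants and 8.57, 5.76, 6.40 and 5.70 in the zinc-treated ones. Wild type replicate 4 and zinc-treated replicate 1 lay apart from their groups, and all untreated mutants were above all other arrays. It rose by 2.51 over wild type (adjusted p = 0.0112) and was 3.08 lower with zinc (adjusted p = 0.0108). Without zinc-treated replicates 2 and 3 the second difference was -2.56 (adjusted p = 0.117).

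**Figure D4:**
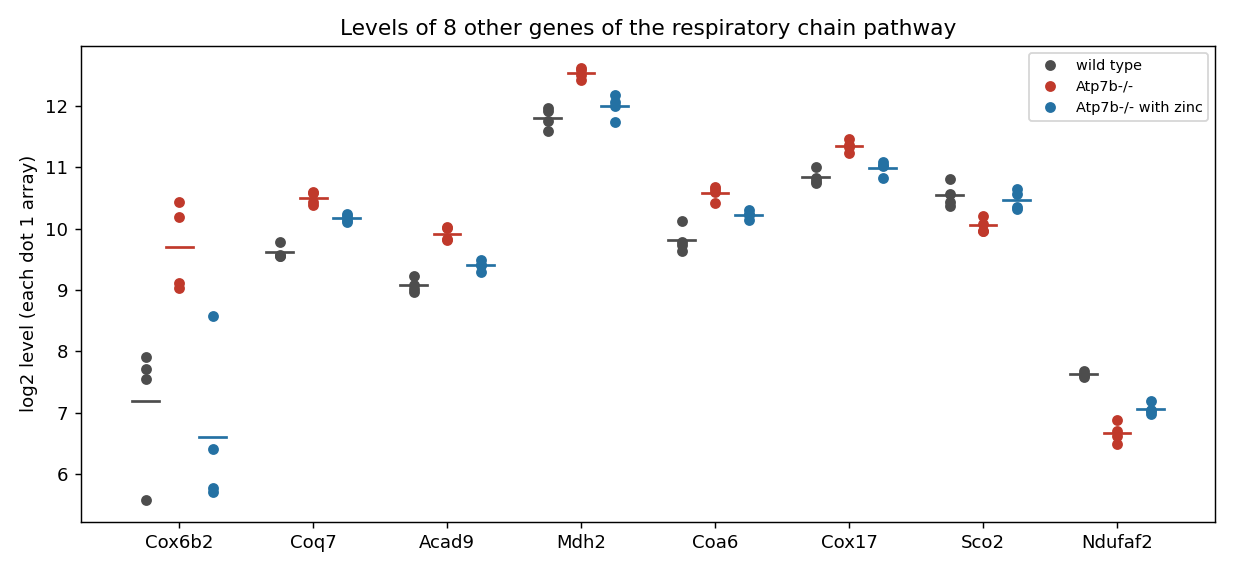
Log2 level (vertical axis) of 8 other genes of the pathway, picked for display after their values were seen. Each dot is 1 array and each line the mean of 4 arrays, for wild type, untreated Atp7b-/- and Atp7b-/- with zinc. Sco2 and Ndufaf2 are lower in untreated mutants, and for Ndufaf2 the 4 arrays lie at 6.49 to 6.87 against 7.58 to 7.67 in wild type.

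Markers of other cells in the tissue also differed between the groups. Of 5 macrophage markers 4 were lower in untreated mutants than in wild type (median -0.65). Their list mean was 8.25 on untreated replicate 1 and 7.14 to 7.40 on replicates 2, 3 and 4, against 7.66 to 8.48 in wild type. On the zinc-treated arrays it was 7.37 to 7.62, below every wild type array. There the median change from wild type was -0.59 and 0 of the markers were called. Of 4 endothelial markers 2 were lower in untreated mutants than in wild type, with list means of 6.94 to 7.09 against 7.27 to 7.42. Of 4 cholangiocyte markers 1 was higher and of 4 stellate cell markers 1, and the means of both lists overlapped between these groups. All 4 lymphocyte markers and all 6 striated muscle markers lay below the median of all genes on every array. In bulk samples fewer cells of a type and less RNA per cell cannot be told apart, and the part of these shifts in the subunit changes was not tested. Of the 5 hepatocyte markers 0 were called in this comparison (limma), and 0 passed an unadjusted p under 0.05. With zinc against untreated mutants 1 of them, the tyrosine aminotransferase gene Tat, was lower by 0.72 (adjusted p = 0.0339).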

How the data were processed

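Liver RNA was measured on 12 arrays, and the deposited values are log2 levels of 45101 probe sets. The method of background correction and normalization is not stated in the labels. The arrays had medians of 5.63 to 5.71, but the quartiles of the untreated Atp7b-/- arrays lay further apart than those of all others. The number of arrays limits the precision. Groups came from the labels. Each gene was read from the probe set listed with it alone that had the highest mean. The 3 comparisons were tested in 1 fit over 12 arrays and 18193 genes with limma 3.58.1 in R 4.3.3 (lmFit, contrasts.fit, eBayes), with Benjamini-Hochberg adjustment within a comparison and a threshold of 0.05. The fit was tested on simulated data. Genes were named by rule: called subunit genes, those with the largest change or extreme mean of a complex, and up to 4 genes of each list by adjusted p in each comparison, with 7 exceptions stated where they are named. The members and lists were chosen with earlier results of these data known. Alternatives covered scaling, probe sets, dim genes, variance model, array weights, a replicate block and left-out arrays.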

Additional observations from a re-analysis of the deposited data

Results flagged for a closer look

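Of 150 sets of 4 arrays (the 49 subunit genes and Atp7b in each of 3 groups), 5 had 1 array far from the other 3 by Dixon's test, where chance sets apart about 1 in 20. Ndufb6 stood at 12.0701 on untreated Atp7b-/- replicate 3, above the other 3 of its group. Untreated replicate 1 was apart for Sdhd (11.6119) and Cox6a1 (14.4399). Uqcrfs1 was apart on wild type replicate 4 (12.0566) and Uqcrh on zinc-treated replicate 3 (12.7956). Causes were not tested.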

How the results depend on the processing

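Untreated Atp7b-/- against wild type had 15 subunit genes called. The count was 9 without _x_at, _s_at and _a_at probe sets, 0 with a minimum change of 1, and 12 to 16 with 1 array left out. Genes of the pathway lists called numbered 41, and 26, 1 and 30 to 42 in those settings. The median change was 0.15 after median centring, 0.083 without those probe sets, 0.070 after quantile normalization and 0.11 to 0.13 with 1 array left out. For complex I these were 0.20, 0.11, 0.086 and 0.15 to 0.19. For complex II it was 0.043 as the mean of all probe sets and 0.043 after quantile normalization, and 0.080 to 0.12 with 1 array left out. For complex III it was 0.076 after centring, 0.0041 after quantile normalization and 0.018 to 0.086 with 1 array left out. Without those probe sets Ndufb2 was at -0.073, Ndufb8 at -0.29, Ndufa12 at -0.22 and Idh3a at 0.10, each turned in sign. Of all genes called, 58.2% were higher, 49.6% after quantile normalization and 67.9% after centring.

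With zinc against untreated mutants 4 genes were called, 8 with array weights, 8 with dim genes left out and 9 with a trend and robust variance. The count was 2 without _x_at, _s_at and _a_at probe sets, 2 with only the groups compared and 0 with a minimum change of 1. It was 0 without zinc-treated replicates 2 and 3, with or without untreated replicate 1. With 1 array left out it was 2 to 5. The pathway lists had 16, then 6 without zinc-treated replicates 2 and 3, 4 without untreated replicate 1 as well, 1 with the minimum change and 9 to 16 with 1 array left out. Medians without those probe sets were -0.037 over all members, -0.086 in complex I, 0.086 in II, -0.033 in III and -0.045 in IV. After quantile normalization they were -0.064 over all, -0.081 in I and -0.044 in III. As the mean of all probe sets they were -0.089 in I and -0.042 in III, and in I -0.084 without zinc-treated replicates 2 and 3. With 1 array left out complex I ran from -0.16 to -0.10 and III from -0.12 to -0.054. Cox17 turned in sign, to 0.039, without those probe sets. Of all genes called 26.0% were higher, 40.2% after quantile normalization and 19.9% after centring.

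With zinc against wild type 0 genes were called, and 0 to 1 with 1 array left out. The pathway lists had 7, then 3 without zinc-treated replicates 2 and 3, 3 without untreated replicate 1 as well, 12 with dim genes left out, 0 with the minimum change and 4 to 10 with 1 array left out. Complex I had medians of 0.018 as the mean of all probe sets, 0.013 without cross-hybridising ones, 0.032 after quantile normalization and 0.022 to 0.066 with 1 array left out. Complex II had 0.063 without zinc-treated replicates 2 and 3, 0.063 without untreated replicate 1 as well, 0.078 without those probe sets and -0.019 to 0.042 with 1 array left out. Complex III had -0.062, -0.066 and -0.049 to 0.0052 for the mean, those probe sets and 1 array left out. The causes were not tested.

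With the replicate block 14 subunit genes were called in the first comparison, 5 in the second and 0 in the third. Same-numbered arrays correlated at -0.13 to 0.24 in their deviations from group means, so the numbers give no pairing.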
